A study of Mus musculus with 12 samples.

Results

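The genes described here encode 8 receptor-type protein tyrosine phosphatases, taken from the 30142 named genes of an expression array and compared between pancreas with and without a HuR transgene. They are the LAR-type genes Ptprf, Ptprd and Ptprs, the granule-type genes Ptprn and Ptprn2, and the receptor phosphatase genes Ptprk, Ptprm and Ptprj. Each was measured by 1 row of the array. The set was chosen by the HuR minus control differences of these arrays, on which Ptprf, Ptprd and Ptprn2 had stood out, together with family membership. Those differences are therefore described without a test.

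Total RNA of mouse pancreas was profiled in 12 samples, 1 array each, from mice aged 6 months. Controls were 6 samples labelled Pdx1/Cre, and the HuR group comprised 6 samples labelled Pdx1/Cre + Traffic-HuR. All 12 samples therefore carried Cre recombinase under the promoter of Pdx1, a gene active in the precursors of acinar, duct and endocrine cells, and only the HuR group carried the transgene. No sample with the transgene but without Cre was analysed here. HuR, encoded by Elavl1, binds AU-rich elements in messages. Whether the arrays came from separate mice is not stated in the labels. The p-values weigh a result against the spread between these samples, which may in part be technical. They need not hold for other mice. Values are deposited log2 expression values, and differences are HuR minus control with the standard error (SE) of a limma fit.

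Receptor-type protein tyrosine phosphatases span the plasma membrane or a vesicle membrane and carry phosphatase domains on the cytoplasmic side. LAR-type members bind heparan sulfate proteoglycans and adhesion proteins outside the cell and liprins inside it. Granule-type members sit in the membrane of dense core secretory granules, are autoantigens of autoimmune diabetes and lack activity towards usual phosphotyrosine substrates. In the pancreas, dense core granules of this kind are a feature of the hormone-producing islet cells, while acinar cells store digestive enzymes in zymogen granules.

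Of the 8 genes, 7 had a lower mean in the HuR samples and 1 a higher mean, with a median difference of -0.28. Over all 30142 genes 52.1% were lower and the median difference was -0.00332. In 3 of the 8, namely Ptprf, Ptprd and Ptprn2, every HuR array lay below every control array, which was the case for 0.133% of all genes. All 3 were among the genes by which the set was chosen, so nothing is read from this count. Across all genes the limma test with Benjamini-Hochberg adjustment called 0 genes (0%) at an adjusted p under 0.05. At an unadjusted p under 0.05 it gave 1657 genes, 5.5% of those tested, and the ordinary linear model gave 1610 and also called 0.

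Elavl1, the gene the transgene encodes, lay at 5.83, 6.02 and 6.12 (lowest, median and highest) in the controls and at 6.05, 6.21 and 6.46 in the HuR samples. In 5 of 6 HuR arrays it lay above every control array. The difference was 0.24 (SE 0.0755), and Elavl1, like every other gene, did not pass the adjusted limma test. Whether its row reads the transgene message was not tested. The array medians were 4.42 to 4.60, and the 8 phosphatase genes were brighter than the median row, at 4.516, with no value shared by several arrays. The acinar enzyme genes Cel and Cpa1 held the highest value of the scale, 19.9, in every sample, and Gcg, the glucagon gene, had a median of 15.53 in the controls. For Gcg 6 arrays shared a value, and for the insulin gene Ins2 10 did. Such values may be compressed, and the islet marker mean leaves these genes out. Control replicate 2 and HuR replicate 2 stood apart. They had the highest islet, fibroblast, macrophage and adipocyte marker means of their genotypes. Member differences and relations that rest on them are given with and without them. The differences of the marker means between the genotypes are given with all arrays only. In whole tissue, fewer cells of a type and less RNA per cell cannot be told apart.

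**Figure D1:**
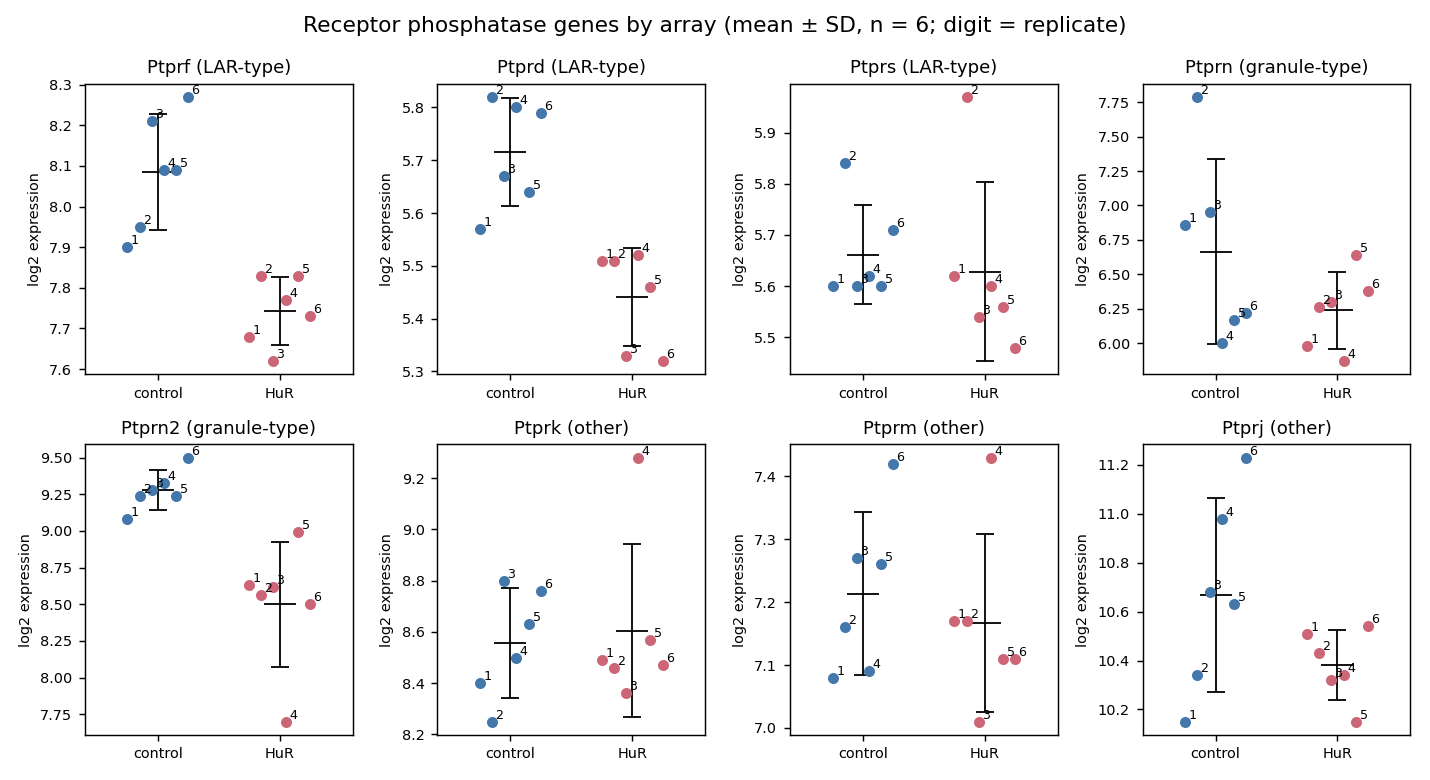
Log2 expression (y axis) of the 8 phosphatase genes on each control and HuR array (points, with replicate digit), with mean and SD bars (n = 6). In Ptprf, Ptprd and Ptprn2 all 6 HuR arrays lie below all controls, while the other 5 genes overlap.

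Among the LAR-type genes, Ptprf and Ptprd were lower on all HuR arrays, as in 0.133% of all genes, and Ptprs overlapped. Ptprf and Ptprd were chosen for these differences, so nothing is read from this contrast. Whether the LAR-type genes differ from each other was not tested. Ptprf encodes LAR itself, a phosphatase of epithelial junctions that also acts on the insulin receptor. It lay at 7.90, 8.09 and 8.27 (lowest, median and highest) in the controls and at 7.62, 7.75 and 7.83 in the HuR samples. The lowest control was replicate 1 and the highest HuR array was replicate 2, and the gap between them was narrow. The means were 8.08 ± 0.14 (SD, n = 6) and 7.74 ± 0.09 (SD, n = 6), a difference of -0.34 (SE 0.0685), or 1.27-fold lower. It ran from -0.389 after a new quantile normalization to -0.304 without control replicate 6.

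Ptprd encodes PTP-delta, best known as an organiser of synapses. Its level lay at 5.57, 5.73 and 5.82 in the controls and at 5.32, 5.49 and 5.52 in the HuR samples. No HuR array reached the lowest control, replicate 1, but the gap to the highest HuR array, replicate 4, was narrow here too. The means were 5.71 ± 0.10 and 5.44 ± 0.09 (SD, n = 6 each), a difference of -0.27 (SE 0.059), or 1.21-fold lower.

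Ptprs encodes PTP-sigma, a receptor for chondroitin and heparan sulfate proteoglycans in axon growth. It lay at 5.60, 5.61 and 5.84 in the controls and at 5.48, 5.58 and 5.97 in the HuR samples. The highest array of each genotype was replicate 2, and 3 HuR arrays lay below all controls. The difference was -0.03 (SE 0.0803). It was -0.07 (SE 0.0409) without both arrays numbered 2 and turned to 0.00309 without control replicate 2 alone.

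The granule-type genes Ptprn and Ptprn2 encode close relatives, IA-2 and phogrin, and both had lower means in the HuR samples. Over the controls their levels went in different orders (r = -0.40), while in the HuR samples replicate 4 was lowest and replicate 5 highest in both genes (r = 0.79). Ptprn lay at 6.00, 6.54 and 7.79 in the controls and at 5.87, 6.28 and 6.64 in the HuR samples. The genotypes overlapped, with 3 controls, replicates 1, 2 and 3, above all HuR arrays and the other controls inside their range. The means were 6.67 ± 0.67 and 6.24 ± 0.28 (SD, n = 6 each), a difference of -0.43 (SE 0.276). Without control replicate 2 it was -0.20, and with the mean of the islet markers as a covariate it was -0.03 (SE 0.127).

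Ptprn2 lay at 9.08, 9.26 and 9.50 in the controls and at 7.70, 8.59 and 8.99 in the HuR samples. The controls were close together, and the HuR arrays were spread, with replicate 4 lowest and replicate 5 nearest to the controls. The means were 9.28 ± 0.14 and 8.50 ± 0.43 (SD, n = 6 each), a difference of -0.78 (SE 0.171), or 1.71-fold lower. It was -0.62 without HuR replicate 4, and -0.76 (SE 0.195) with the islet mean as a covariate.

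The islet marker mean itself, over 15 genes such as the transcription factor genes Pax6 and Nkx6-1, lay at 6.51, 7.21 and 8.42 in the controls and at 6.50, 6.82 and 7.27 in the HuR samples. Of 18 measured islet markers, which include the genes left out of the mean for shared values, 16 were lower and 2 higher. Over all genes 52.1% were lower. None of the islet markers passed the adjusted limma test. With the genotype means removed, Ptprn went with the islet mean at Pearson r = 0.92 (permutation p = 0.00081) and Spearman rho = 0.85 (permutation p = 0.00361) over 12 arrays. Adjusted over the 72 relations of members with marker lists, p was 0.0583 for r and 0.17 for rho, so neither passed. The r was 0.98 within the controls and 0.57 within the HuR samples. It was 0.74 without the arrays farthest from the median islet mean, control replicates 2 and 4, and 0.91 without both arrays numbered 2.

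For Ptprn2 the same relation gave r = 0.06 (permutation p = 0.781, adjusted 0.853) and rho = 0.06 (permutation p = 0.867, adjusted 0.975). It was -0.23 within the controls, 0.36 within the HuR samples and 0.21 without control replicates 2 and 4. Over 14 single islet markers, r with Ptprn ran from 0.38 for the potassium channel gene Kcnj11 to 0.98 for Ucn3, with a median of 0.83. With Ptprn2 it ran from -0.20 for Pyy to 0.29 for Kcnj11, with a median of 0.10. These are descriptions, as all of these values share the same 12 arrays. Ptprn and Ptprn2 themselves went together at r = 0.17 (permutation p = 0.43, adjusted 0.604 over 28 pairs) and rho = 0.01 (permutation p = 0.974). The r was -0.40 in the controls, 0.79 in the HuR samples and -0.42 without HuR replicates 4 and 5. Whether the r values of Ptprn and Ptprn2 differ was not tested.

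**Figure D2:**
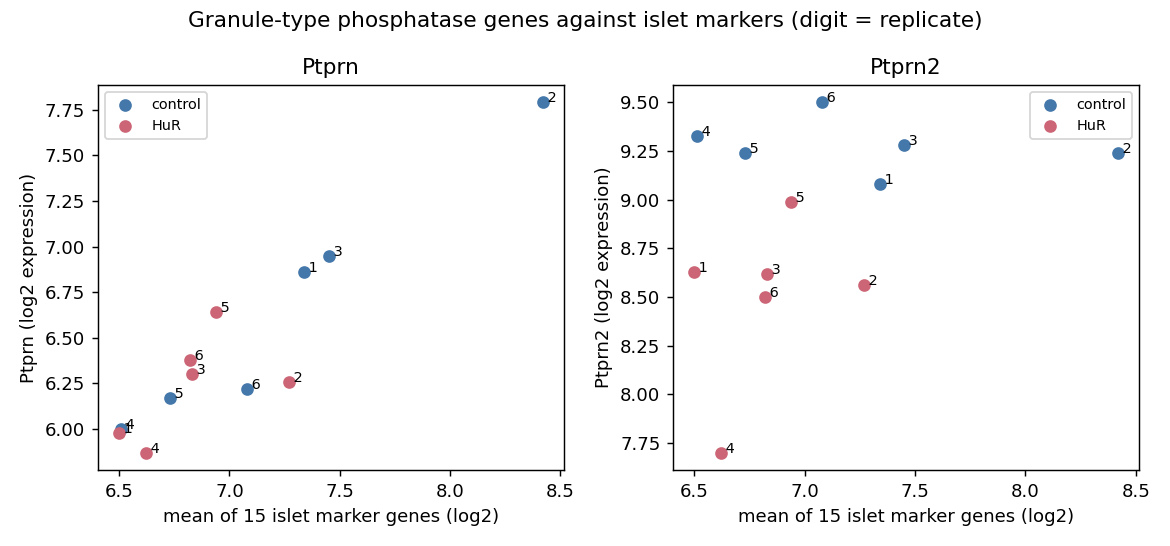
Log2 expression of Ptprn (left) and Ptprn2 (right) against the mean log2 level of 15 islet marker genes, 1 point per array with its replicate digit, controls and HuR samples in separate colours. Ptprn is higher where the islet mean is higher, up to control replicate 2, while the HuR points of Ptprn2 lie below the controls across the islet axis.

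The promoter windows of this pair are shown because the genes encode paralogous granule proteins. They come from RefSeq (GRCm38.p6), hold 250 bases before and 50 bases after an annotated start, and read 5′ to 3′ along the gene. Capitals mark matches, on either strand, to any of 6 motifs searched. For Ptprn the window farther upstream of its 2 windows is given.
Ptprn, chr1:75264159-75264458, strand -: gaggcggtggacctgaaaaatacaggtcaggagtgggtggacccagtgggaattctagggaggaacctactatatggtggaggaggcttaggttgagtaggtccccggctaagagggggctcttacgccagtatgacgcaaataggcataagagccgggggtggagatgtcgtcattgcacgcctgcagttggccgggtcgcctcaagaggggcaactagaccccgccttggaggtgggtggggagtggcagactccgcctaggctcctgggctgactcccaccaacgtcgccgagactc
Ptprn2, chr12:116485470-116485769, strand +: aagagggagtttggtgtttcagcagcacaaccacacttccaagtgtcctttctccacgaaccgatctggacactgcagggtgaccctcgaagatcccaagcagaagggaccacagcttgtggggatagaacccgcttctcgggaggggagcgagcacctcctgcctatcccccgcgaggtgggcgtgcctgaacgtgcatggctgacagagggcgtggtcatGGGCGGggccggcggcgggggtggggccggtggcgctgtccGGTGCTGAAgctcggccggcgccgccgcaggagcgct
The motifs were the TATA box (TATAAA), the CCAAT box (CCAAT), the GC box (GGGCGG), the cAMP response element (TGACGTCA), the E-box (CACGTG) and the start of the element bound by the neuronal repressor REST (TTCAGCACC). No letters of one motif include another in this set. The Ptprn2 window held 1 GC box and 1 match to the REST letters, read on the opposite strand as GGTGCTGAA. GC boxes occurred in 35.7% and the REST letters in 0.371% of the 32851 promoter windows of this length. The Ptprn window shown held none of the 6 motifs, and its other window held 1 GC box. GC content was 60.3% and 66.0% for the windows shown, against a median of 52.7% over all windows. A match is a description of letters and not of binding.

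Among the other receptor phosphatase genes, Ptprj had a lower mean in the HuR samples, while Ptprk and Ptprm differed by less than their SE. Ptprj encodes a phosphatase of epithelial, endothelial and blood cells that acts on growth factor receptors. It lay at 10.15, 10.66 and 11.23 in the controls and at 10.15, 10.39 and 10.54 in the HuR samples. Of the HuR arrays 1, replicate 5, lay just below all controls and the others in the lower part of the control range, and 4 controls lay above all of them. The difference was -0.29 (SE 0.162), and without control replicate 6, the highest, it was -0.17.

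Ptprk and Ptprm encode adhesion phosphatases whose extracellular MAM domains bind the same protein on the neighbouring cell. Ptprk lay at 8.25, 8.56 and 8.80 in the controls and at 8.36, 8.48 and 9.28 in the HuR samples. HuR replicate 4 alone exceeded the controls. The difference was 0.05 (SE 0.153), and it was -0.09 (SE 0.0963) without that array. Ptprm lay at 7.08, 7.21 and 7.42 in the controls and at 7.01, 7.14 and 7.43 in the HuR samples. The difference was -0.04 (SE 0.0775). HuR replicate 4 was again the highest HuR array, the same array in which Ptprn2 was lowest.

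Ptprk and Ptprm went together over the arrays with the genotype means removed, at r = 0.86 (permutation p = 0.00356, adjusted 0.0997 over 28 pairs) and rho = 0.76 (permutation p = 0.011, adjusted 0.112). The r was 0.76 in the controls and 0.94 in the HuR samples. Without HuR replicate 4 and control replicate 6, the arrays farthest from the median of Ptprm, it was 0.66. The promoter windows of this pair, in the same notation, are shown because the genes encode related proteins and had the highest r among the 28 pairs.
Ptprk, chr10:28074570-28074869, strand +: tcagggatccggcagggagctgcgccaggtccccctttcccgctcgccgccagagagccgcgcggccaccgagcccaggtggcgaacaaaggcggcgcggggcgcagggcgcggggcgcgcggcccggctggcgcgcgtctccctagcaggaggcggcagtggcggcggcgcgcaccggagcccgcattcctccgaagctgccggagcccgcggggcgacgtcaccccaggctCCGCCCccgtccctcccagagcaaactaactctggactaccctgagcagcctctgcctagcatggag
Ptprm, chr17:67354410-67354709, strand -: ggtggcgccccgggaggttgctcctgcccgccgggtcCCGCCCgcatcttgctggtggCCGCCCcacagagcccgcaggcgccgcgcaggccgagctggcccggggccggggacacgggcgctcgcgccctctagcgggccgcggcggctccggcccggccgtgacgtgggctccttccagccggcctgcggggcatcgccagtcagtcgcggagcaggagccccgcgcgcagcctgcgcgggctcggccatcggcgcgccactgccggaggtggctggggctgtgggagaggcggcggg
Both are rich in G and C, at 75.0% and 80.7%, with 38 and 43 CG dinucleotides against a median of 7 over all windows. The Ptprk window held 1 GC box and the Ptprm window 2, with no match to the other 5 motifs. Windows of 7 of the 8 genes were in the table, and Ptprd had none there.

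Among the LAR-type genes Ptprd and Ptprs went together at rho = 0.77 (permutation p = 0.00084, adjusted 0.0235 over 28 pairs), the only pair past 0.05 by rank. By Pearson the same pair had r = 0.58 (permutation p = 0.0347, adjusted 0.324). It was 0.80 without the arrays numbered 2, which are the farthest from the median of Ptprs. Ptprf had its higher r values with Ptprm, at 0.63, and with Ptprj, at 0.64, of which the latter was 0.86 in the controls and -0.32 in the HuR samples. That r was 0.17 without control replicates 1 and 6. Ptprn2 had a negative r with Ptprk of -0.59 (permutation p = 0.168) that turned to 0.57 without HuR replicate 4 and control replicate 3. In all, 0 of 28 pairs passed the adjusted permutation test by Pearson and 4 had an unadjusted p under 0.05.

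Ptprs went with the fibroblast and stellate cell marker mean, over 10 genes such as Dcn and Col1a1, at r = 0.92 (permutation p = 0.00163, adjusted 0.0587 over 72 relations). The rho was 0.71 (permutation p = 0.0146, adjusted 0.268). It rested on the arrays numbered 2, which are the farthest from the median of that mean: without them r was 0.61 (adjusted permutation p = 0.598). The same held for Ptprs and the macrophage mean, with r = 0.86 (permutation p = 0.00784, adjusted 0.188) and 0.21 without them. The r of Ptprs turned sign without them for the adipocyte mean, from 0.81 to -0.18, the acinar mean, from -0.69 to 0.22, and the islet mean, from 0.55 to -0.27, each at an adjusted permutation p of 0.214 with all arrays. The rho of these relations over all arrays was 0.46, -0.43 and 0.15. Ptprf went with the duct mean at r = 0.66 (permutation p = 0.0363, adjusted 0.263) and rho = 0.64, and r was 0.53 without control replicates 2 and 6. With the endothelial mean it had r = 0.66 (permutation p = 0.0213, adjusted 0.214) and rho = 0.66, and r was 0.41 without HuR replicate 2 and control replicate 6. Of the 72 relations with marker lists 0 passed, and 10 had an unadjusted permutation p under 0.05.

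**Figure D3:**
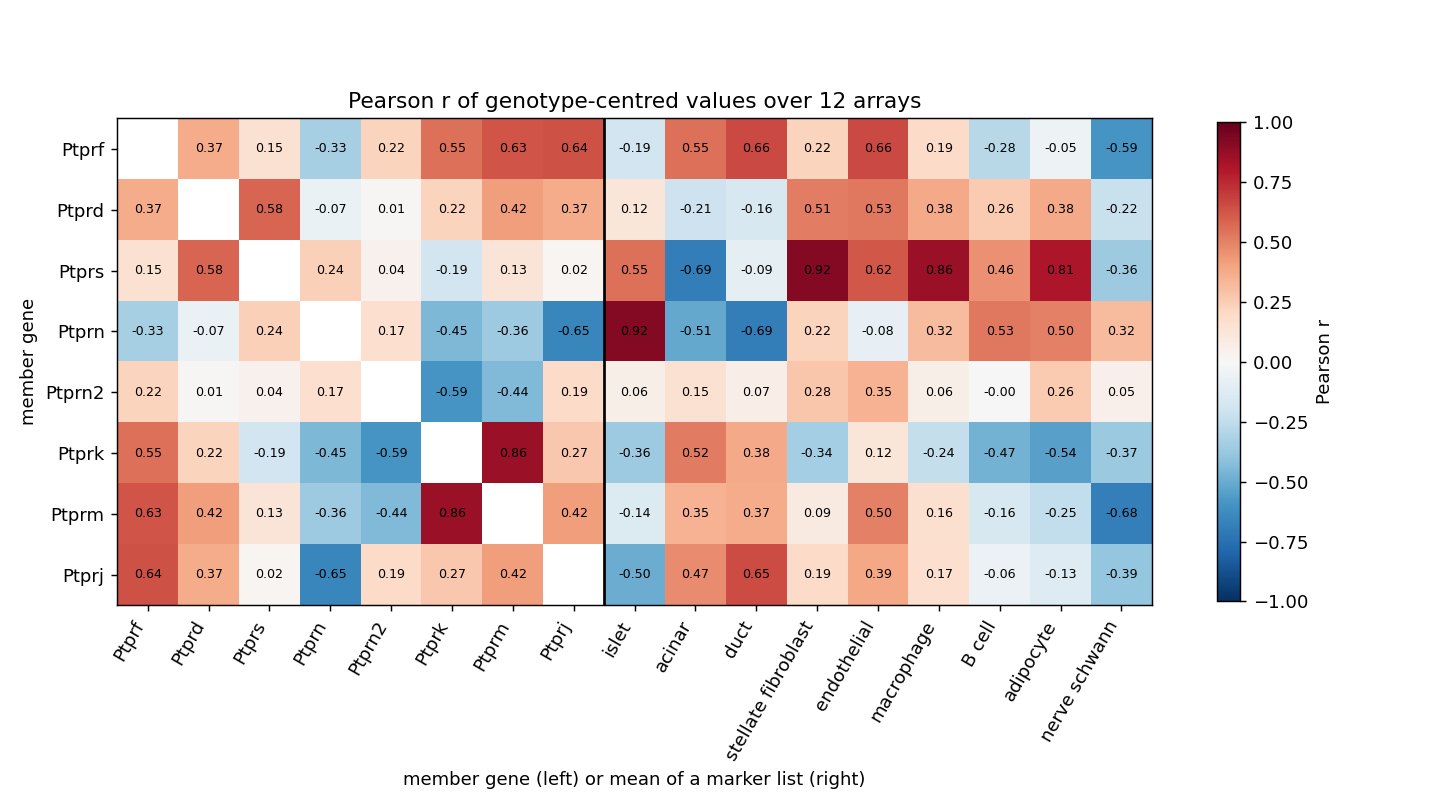
Pearson r over 12 arrays, with the mean of each genotype removed, between the 8 phosphatase genes (rows) and each other (left of the line) or the means of 9 marker lists (right). Ptprn with islet markers and Ptprs with fibroblast markers reach 0.92, and the Ptprn2 row holds no positive value above 0.35.

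Genes with the most similar pattern over the arrays were listed for each member by r of genotype-centred values over 12 arrays, among 11860 other protein-coding genes above the median row, with no test. With so many candidates the highest r is large even for unrelated genes, so no shared function is read from these genes. For Ptprn they were Ucn3, which encodes the beta cell peptide urocortin 3, Sez6l2 and the carbonic anhydrase-related gene Car10, each at 0.98. For Ptprn2 they were the DNA repair genes Swi5 and Apex1, both at 0.91, and Ndufa1, a gene of respiratory complex I, at 0.89. The 3 genes nearest to Ptprn2 differed between the genotypes by -0.05 (SE 0.136), 0.01 (SE 0.0658) and -0.05 (SE 0.138). Ucn3 differed by -0.60 (SE 0.344) and Sez6l2 by -0.28 (SE 0.144).

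For Ptprf the nearest genes were the polarity kinase gene Mark2 at 0.91, the nuclear import gene Tnpo2 at 0.90 and the transcription factor gene E2f4 at 0.90. For Ptprd they were the GTPase gene Rhog at 0.90, the protease gene Prss23 at 0.86 and 2610008E11Rik at 0.84. For Ptprs they were the Hedgehog signal transducer gene Smo at 0.99, the protease gene Htra3 at 0.98 and the transcription factor gene Klf2 at 0.98. Without both arrays numbered 2 these last values were 0.84, 0.85 and 0.87.

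For Ptprk the nearest genes were Tmem234 at 0.99, the kinase gene Stk11 at 0.96 and the Polycomb-associated gene Mtf2 at 0.96. The part of HuR replicate 4, where Ptprk stood apart, was not tested. For Ptprm they were the integrin gene Itgb4 at 0.94, the mitochondrial carrier gene Slc25a12 at 0.94 and Sidt2 at 0.93. For Ptprj they were the phosphoinositide phosphatase gene Pip4p2 at 0.91, the sphingosine phosphate receptor gene S1pr2 at 0.90 and the adaptor gene Pik3ap1 at 0.89.

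**Figure D4:**
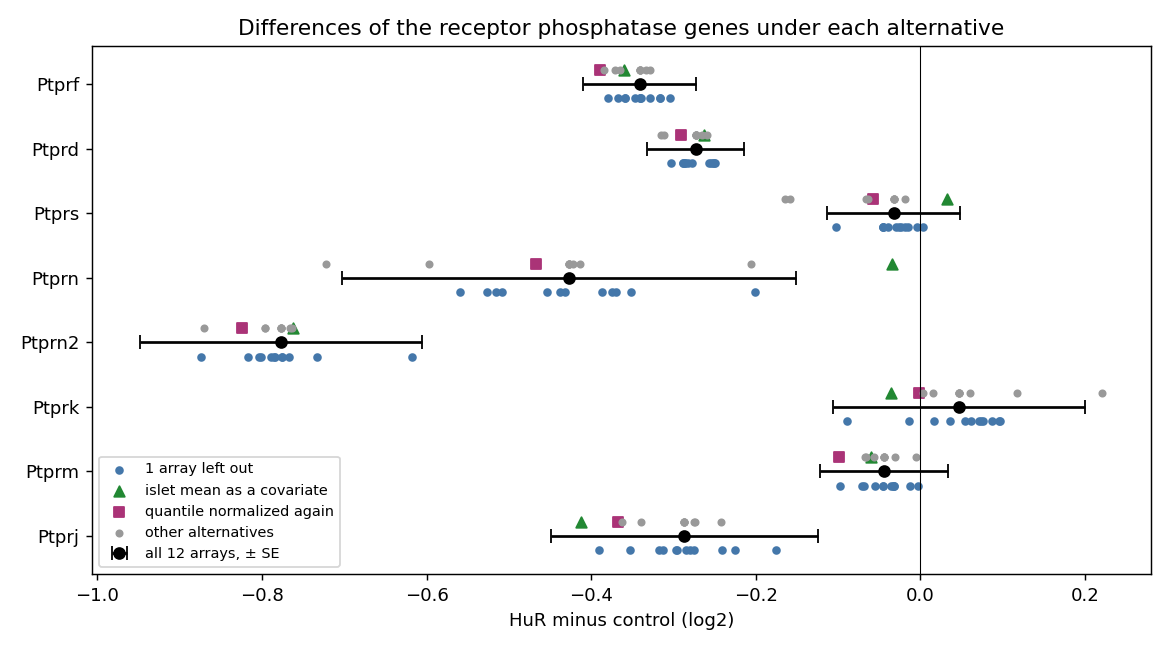
HuR minus control difference (x axis, log2) of each phosphatase gene for all 12 arrays (black, ± SE), with 1 array left out (blue) and under the other alternatives (triangles, squares, grey). Ptprf, Ptprd and Ptprn2 keep their sign, which leaving arrays out could not turn, as their genotypes did not overlap. Some of the other alternatives could not change the differences of any gene. Ptprn moves to -0.03 with the islet mean as a covariate.

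Of the marker lists, the means of 5 were within 0.05 of each other in the genotypes, with HuR minus control at -0.03 for duct, 0.01 for fibroblast, 0.05 for endothelial, 0.02 for B cell and -0.03 for nerve markers. The acinar mean differed by -0.12, the islet mean by -0.42, the macrophage mean by 0.68 and the adipocyte mean by 1.12. These differences include the arrays numbered 2. For the islet mean, control replicate 2 lay at 8.42 and the next control, replicate 3, at 7.45. Of 11 measured macrophage markers 10 were higher, and their mean lay at 6.86 to 8.40 in the controls and 7.43 to 9.56 in the HuR samples. All 9 measured adipocyte markers were higher, with means of 6.62 to 8.94 and 7.24 to 10.41. No marker of the 9 lists passed the adjusted limma test. With the macrophage mean as a covariate the differences were -0.36 for Ptprf, -0.31 for Ptprd and -0.80 for Ptprn2. With the adipocyte mean they were -0.33, -0.32 and -0.87. Ptprn moved more, to -0.60 and -0.72. Ptprs moved to -0.16 with either mean, and Ptprk to 0.12 with the macrophage and 0.22 with the adipocyte mean.

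Of the other 13 receptor phosphatase genes listed, 12 were measured, and 7 of these lay above the median row. None passed the adjusted limma test, 5 were higher and 7 lower, and their median difference was -0.02. At an unadjusted p under 0.05 there were 2, both higher, where 2.87% of all genes were higher at that level. Ptpro, a phosphatase gene of podocytes and macrophages, lay at 4.57 to 4.66 in the controls and at 4.69 to 4.78 in the HuR samples. Every HuR array lay above every control, as in 0.166% of all genes. The difference of 0.11 (SE 0.0338) was small, and the level was close to the median row. Ptprc encodes CD45, the phosphatase of white blood cells. It lay at 5.99, 6.44 and 8.39 in the controls and at 7.01, 7.62 and 9.35 in the HuR samples. It differed by 1.28 (SE 0.496, limma adjusted p = 0.878).

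In the plot of the family the 5 lowest differences are all among the genes described, and nothing is read from this, since the set was assembled with these differences known. As examples of the other measured genes, Ptpru of the MAM group differed by -0.03 (SE 0.0322). The endothelial gene Ptprb, a relative of Ptprj, differed by 0.13 (SE 0.137), and Ptprg and Ptpra by 0.14 (SE 0.103) and -0.06 (SE 0.159).

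**Figure D5:**
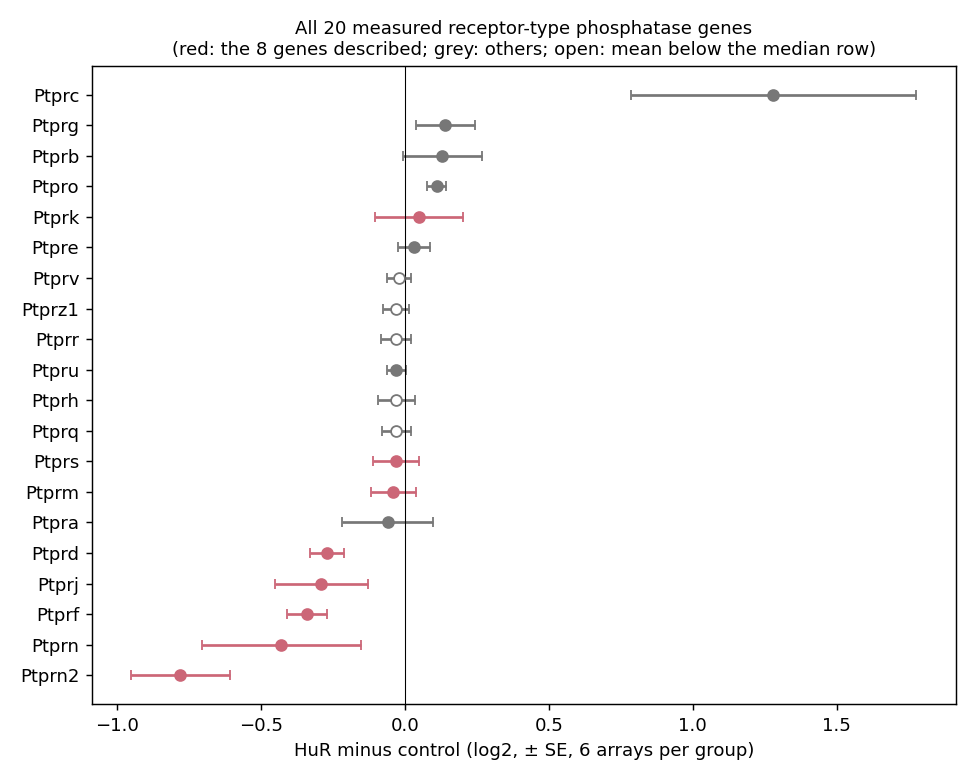
HuR minus control difference (log2, ± SE, 6 arrays per group) of all 20 measured receptor-type phosphatase genes, with the 8 genes described in red, the others in grey and genes below the median row as open points. Ptprn2 is lowest at -0.78 and Ptprc highest at 1.28.

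Of 17 measured genes of non-receptor tyrosine phosphatases 0 passed the adjusted limma test, with 11 higher, 6 lower and a median difference of 0.0123. Ptpn22, a phosphatase gene of lymphocytes, differed by 0.76 (SE 0.274), and Ptpn2 by 0.13 (SE 0.0684). Of 29 genes for partners of LAR-type phosphatases, which include liprins, glypicans, syndecans and synaptic adhesion proteins, 0 passed, with 9 higher and 20 lower at a median of -0.0167. The scaffold gene Kidins220 and the glypican gene Gpc4 differed by -0.21 (SE 0.104) and -0.18 (SE 0.09). Of 16 measured genes of adhesion partners and substrates 8 were higher and 8 lower, and 0 passed. Cdh1, the E-cadherin gene, differed by -0.22 (SE 0.141), and Thbs1, which encodes thrombospondin, a ligand of the Ptprj product, by 0.43 (SE 0.341). Of 9 measured genes of the proteases that cleave these receptors, 3 were higher, 6 lower and 0 passed, with Pcsk6 at -0.19 (SE 0.115) and Adam10 at 0.15 (SE 0.114).

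Genes of dense core granules, where the granule-type phosphatases reside, were lower in 20 and higher in 3 of 23 measured members. Over all genes 52.1% were lower. The median difference of the 23 was -0.204, against -0.00332 over all genes. None passed the adjusted limma test. At an unadjusted p under 0.05 there were 4, all lower, where 2.63% of all genes were lower at that level. Rab3a, a GTPase gene of vesicle exocytosis, lay at 5.97, 6.01 and 6.08 in the controls and at 5.69, 5.85 and 5.90 in the HuR samples. Every HuR array of Rab3a lay below every control, as in 0.133% of all genes, with a difference of -0.18 (SE 0.0439). Rab3a was named for its small p within the list, so nothing is read from this. The exocytosis effector gene Rph3al differed by -0.29 (SE 0.084). The other 2 genes, chosen after their values were seen, were the granule docking gene Sytl4 at -0.29 (SE 0.088) and Pam, a gene of peptide amidation, at -0.46 (SE 0.201). The islet marker mean also differed, by -0.42 with all arrays, where control replicate 2 lay at 8.42 and the next control, replicate 3, at 7.45. The part of the islet mean in the result was not tested.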

How the data were processed

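RNA from 12 pancreas samples was hybridised to 1 array each. The authors deposited log2 values made with RMA, per the labels, a method that subtracts background and makes arrays comparable. The software, per the submitters' processing notes, was Affymetrix Expression Console 1.4, with Transcriptome Analysis Console 3.1 also listed. Its settings are not given in these sources. Of 72688 rows, 6732 control rows were left out, and 30604 of 65956 rows had 1 gene symbol in the platform annotation. Symbols were updated through RefSeq (GRCm38.p6), and the highest-mean row was taken per gene, which left 30142 genes. Values can be compressed where arrays share a value, so marker means leave out genes with the same value on 3 or more arrays.

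All rows entered 1 fit with limma 3.58.1 (lmFit, eBayes) in R 4.3.3, two-sided, with adjustment over genes, after a test on simulated data. The members and gene lists were chosen with earlier results of these data known, so members get no p for the genotype difference. Relations used values centred on the genotype mean and two-sided permutation within genotype (100000 resamples, Python 3.11.15). Genes named were the members, Elavl1, the 2 of smallest p above the median row per wider list, and the 3 most similar per member. Other genes are marked as chosen later or are marker and family examples. Array number limits precision.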

Additional observations from a re-analysis of the deposited data

Results flagged for a closer look

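Among 66 groups of 6 arrays examined, 7 held an array whose gap to the nearest other exceeded 0.625 of the range, 10.6%, where chance gives about 1 in 20. Of the members, Ptprs stood at 5.97 in HuR replicate 2, with the next array at 5.62. Ptprk stood at 9.28 in HuR replicate 4, with the next at 8.57. Outside the members, Ptprc stood at 8.39 and Ptpn22 at 6.12 in control replicate 2. In HuR replicate 2, Kidins220 stood at 9.70, Ptpra at 8.75 and Ptprg at 7.44. All 5 of the values outside the members, and that of Ptprs, lie on the arrays numbered 2, which also had the highest macrophage means of their genotypes, at 8.40 and 9.56. Their part in these values was not tested.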

How the results depend on the processing

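The differences of Ptprf, Ptprd, Ptprn, Ptprn2, Ptprm and Ptprj kept their sign and moved by less than 1 within-genotype SD under all 23 alternatives. With each array left out in turn they ran from -0.379 to -0.304, -0.303 to -0.249, -0.559 to -0.201, -0.874 to -0.618, -0.0972 to -0.00276 and -0.391 to -0.175, in that order. The replicate block, the median row filter, the mean of rows and the ordinary linear model could not change these differences. Leaving arrays out could not turn the sign of Ptprf, Ptprd or Ptprn2, whose genotypes did not overlap. Ptprn shrank to -0.0344 (SE 0.127) with the islet mean as a covariate, and Ptprm to -0.00551 (SE 0.0925) with the adipocyte mean. Both are smaller than their SE. Ptprs and Ptprk had no settled sign. With the islet mean in the model they differed by 0.032 and -0.036, and with arrays left out by -0.102 to 0.00309 and -0.0889 to 0.0969, where Ptprs turned without control replicate 2 and Ptprk without that array or HuR replicate 4. Ptprk also turned to -0.00188 after a new quantile normalization. Genes called over all genes stayed at 0, except for 1, Gm7003, with the macrophage mean as a covariate, an alternative chosen after seeing the data. Among the relations, the adjusted permutation p of Ptprn with islet markers fell under 0.05 after a new quantile normalization, at r = 0.93, and without HuR replicate 2, 4 or 5, with r from 0.80 to 0.96 over the arrays left out. That of Ptprs with fibroblast markers did so without HuR replicate 4, in a range of 0.79 to 0.96, and that of Ptprk with Ptprm at r = 0.92 after a new quantile normalization, in a range of 0.73 to 0.88. Ptprd with Ptprs passed by Spearman only, at 0.77, in a range of 0.50 to 0.74 by Pearson. Ptprn2 with islet markers was -0.13 after a new quantile normalization and -0.13 to 0.14 with arrays left out, and Ptprn with Ptprn2 was -0.09 to 0.31, negative without HuR replicate 4. The causes of these changes were not tested.

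The replicate number as a block could not change the differences, because each number occurs equally often in both genotypes. Unchanged values, as at -0.341 for Ptprf, are therefore no check of them. Only the SE and p could change. With the block 0 genes were called, with 2269 at an unadjusted p under 0.05 against 1657 without it. In the labels the paired arrays share only a number, and what it stands for is not stated there. After removal of the genotype means 4 of 6 pairs correlated above 0.1, with the arrays numbered 2 highest at r = 0.654. Of the 6 control arrays 3 correlated best with their own number. Whether the numbers mark a true pairing was not tested.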
